A study of Mus musculus with 2 samples.

Results

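Chromatin immunoprecipitation and sequencing (ChIP-seq) for GABPα in CD4+ T cells gave a list of 6782 bound intervals (peaks), and 854 of them (12.6%, 95% interval 11.8 to 13.4) were wide peaks at the start of a single protein-coding gene. These members were chosen by their measured width. A member had to be wider than 250 bp, to have under 50% of its bases soft-masked as repeats in the reference, and to lie within 1000 bp of the outermost annotated start of a coding gene. That gene start was also required to have no divergent partner, meaning a coding gene on the other strand, not overlapping it, that starts head to head within 1000 bp. Of all 1194 peaks over 250 bp, 71.5% (68.9 to 74.0) met these conditions, and 17 more failed only through soft-masking. The 854 wide peaks had 854 different nearest genes. For comparison, the same list gave 1887 narrow peaks, of 250 bp or less and chosen in the same way at single coding starts, and 126 wide peaks at divergent coding promoters.

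The cells were CD4+ T cells of wild-type C57BL/6 mice, purified with MACS magnetic beads. Wild type in the study means Gabpa f/f mice without Cre, whose floxed Gabpa alleles are intact. No further sort by activation state is given, and 1 ChIP library was made with an anti-GABPα antibody. DNA of the chromatin input made up the other library and entered only as the control in the authors' peak calling. The deposited list gives the position of each peak with no height, fold enrichment or read count, so the depth is unknown here. With 1 library there are no replicates, and each value describes that library alone. Shares are given with Wilson 95% intervals and differences of shares with Newcombe 95% intervals, both of which cover counting error only. The sources used here do not state the age or number of the mice. The genes for the T-cell proteins Cd3e, Cd3d, Cd3g, Cd247, Cd4, Lck, Cd2 and Cd5 had no peak within 1000 bp of their starts, so a list of this kind gives no marker check of the cells.

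GABPα is the DNA-binding subunit of GABP, a transcription factor of the Ets family. It recognises a GGAA core, most strongly with CC before it and G after it, and pairs with GABPβ, which carries the activation domain and can join a pair of GABPα subunits on neighbouring sites. GABP is best known as a regulator of promoters that lack a TATA box, among them those of genes for mitochondrial, ribosomal and other basic cell functions.

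The sequence under the wide peaks is shown first at 3 of the 8 members with the most motif copies, those with at least 3 copies before the gene start, because wide and narrow peaks differed in the number of copies. Other members also had 3 copies before the start. Each stretch is read on the strand of the gene, 5′ to 3′, from mm10 (GRCm38), and ends at the base before the outermost start. None overlaps an annotated exon. Capitals mark CCGGAAG, which reads CTTCCGG where the motif is on the other strand.
Nr1h2, 103 bases, chr7:44553952-44554054, minus strand: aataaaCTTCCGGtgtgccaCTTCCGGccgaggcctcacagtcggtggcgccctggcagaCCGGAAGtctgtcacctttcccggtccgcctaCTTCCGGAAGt
Timmdc1, 150 bases, chr16:38522664-38522813, minus strand: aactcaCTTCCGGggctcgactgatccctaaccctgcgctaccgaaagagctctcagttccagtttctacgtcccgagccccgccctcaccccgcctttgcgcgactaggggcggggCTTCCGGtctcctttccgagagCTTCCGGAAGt
Lonp2, 167 bases, chr8:86623876-86624042, plus strand: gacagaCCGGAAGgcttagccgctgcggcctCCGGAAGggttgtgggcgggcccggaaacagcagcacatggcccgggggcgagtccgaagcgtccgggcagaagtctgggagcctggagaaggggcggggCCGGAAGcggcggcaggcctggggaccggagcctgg

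Nr1h2 encodes a nuclear receptor for oxysterols, and its peak of 319 bp held 6 copies of CCGGAAG, the most of any member. Their centres lay at -94, -80, -40, -8, -5 and 20 bp from the start, where negative values are upstream. Timmdc1, an assembly factor of respiratory complex I, had 4 copies in a peak of 393 bp, at -141, -30, -8 and -5 bp. Lonp2, a protease of peroxisomes, also had 4, at -158, -133, -33 and 16 bp in a peak of 385 bp. In Nr1h2 and Timmdc1 the last 2 copies before the start overlap on opposite strands and form the palindrome CTTCCGGAAG. Such overlapping copies occurred in 17 members, and 3 bp was the smallest distance found between neighbouring copies.
Tomm22, chr15:79670811-79670840, plus strand: gcccggctcgCTTCCGGAAGacgctctgtc
Gins4, chr8:23237774-23237803, minus strand: ccttccccgcCTTCCGGAAGtatgttctat
Snrpe, chr1:133610258-133610287, minus strand: ccgggtcttgCTTCCGGAAGtcgctttccg
Rab11a, chr9:64737753-64737782, minus strand: gggctggggcCTTCCGGAAGtgacgcatac

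These 4 sites, with the palindrome in capitals, lay at -36, -129, 19 and -9 bp from the starts of Tomm22 (a receptor for protein import into mitochondria), Gins4 (a subunit of the replicative helicase), Snrpe (a core protein of spliceosomal RNA particles) and Rab11a (a GTPase of recycling endosomes).

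The remaining sequences show how the best match varied among genes that the study names for GABPα binding or regulation. Of 21 such genes looked up here, 6 were members, Gabpa, Cox5b, Mcm3, Nubp1, Mcrs1 and Mrpl16, where 4.18% of all single coding genes have a wide peak nearest to them. The 21 are not all the genes the study names, and they were picked with earlier results of these data known, so nothing is read from this count. For each, 30 bases around the copy nearest the peak midpoint are given 5′ to 3′ on the strand of the motif, with CCGGAAG in capitals, or CGGAAG or GGAA where the peak lacks the longer form.
Gabpa, chr16:84834847-84834876, minus strand: cggagccagggCCGGAAGtagaacggtggc
Mcrs1, chr15:99251936-99251965, minus strand: tcgttcgcaacCCGGAAGtagatgtgtctc
Cox5b, chr1:36691546-36691575, plus strand: tcagcctgttcCCGGAAGtgcatctgcttg
Mcm3, chr1:20820284-20820313, plus strand: gttttcccgccaCGGAAGtttatggtggag
Mrpl16, chr19:11770320-11770349, minus strand: atagagtcctgaCGGAAGtagaggaaactt
Nubp1, chr16:10412048-10412077, minus strand: ggggcagcctgcgGGAAgacgaaggcacag

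Gabpa itself had a peak of 370 bp with 2 copies of CCGGAAG, at -63 and 109 bp. The start of Atp5j, on the opposite strand and overlapping Gabpa, lay within 1000 bp of the same peak. Mcrs1, a gene for a chromatin and centrosome protein, had 2 copies at -23 and 10 bp in 329 bp, and Cox5b, a subunit of cytochrome c oxidase, had 1 copy at 111 bp in 287 bp. The other 3 had no CCGGAAG. Mcm3 (296 bp) and Mrpl16 (291 bp), for a helicase subunit and a mitochondrial ribosomal protein, each held 1 copy of the shorter CGGAAG. The study marks 2 GABP motifs lying 10 bp apart at the Mcm3 promoter, more than this exact string finds. Nubp1, which takes part in iron-sulfur cluster assembly, had the widest peak of the 6, at 465 bp, with 7 GGAA cores and no CGGAAG. The widths with and without the full motif overlapped in these 6 genes.

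Widths ran from 251 to 654 bp; the median was 296 bp and the quartiles were 272 and 340 bp. Widths over 300 bp occurred in 395 members, over 400 bp in 103 and over 500 bp in 21. The widest was at Trim41 (654 bp), which encodes a ubiquitin ligase. It was followed by Ap2a1 (631 bp), for a subunit of a clathrin adaptor, Usp38 (609 bp), for a deubiquitinase, and Mplkip (604 bp), for a protein that binds a mitotic kinase. Next came Ufc1 (593 bp), the conjugating enzyme of the ubiquitin-like protein UFM1, and Zfp384 (579 bp), a zinc finger transcription factor. Kbtbd2 (575 bp) encodes a cullin adaptor and Cstf2t (567 bp) a factor for the 3′ ends of RNA, and the zinc finger genes Zfp263 (565 bp) and Zfp959 (536 bp) completed the 10 widest. The 10 span protein modification, membrane traffic, RNA processing and transcription. No gap separates the members from the narrow peaks at the limit. Cox10, Csgalnact2 and Dohh were among 11 members at 251 bp, and Itfg2, Mterf1a and Fbxo36 among 7 peaks just outside it at 250 bp.

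**Figure D1:**
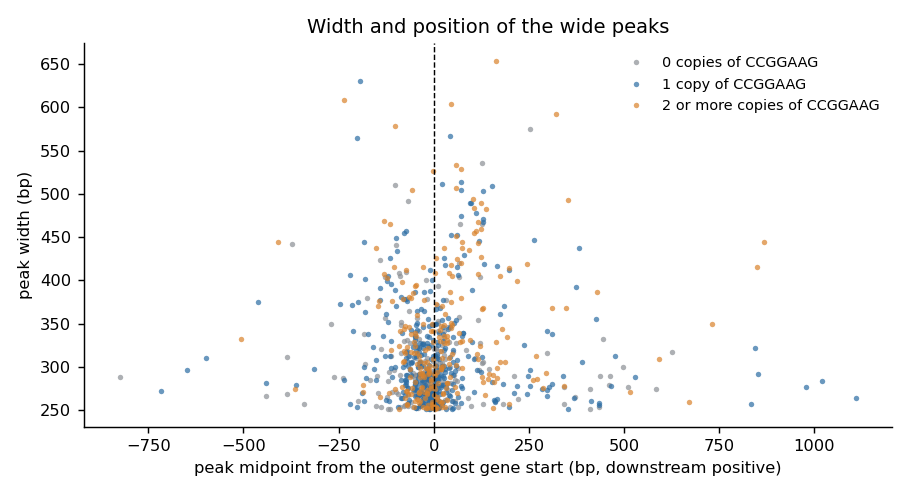
Width of each of the 854 wide peaks (vertical axis, bp) against the distance of its midpoint from the outermost gene start (horizontal axis, bp, downstream positive), coloured by the number of CCGGAAG copies. Most points stand close to 0, and the points over 400 bp spread farther to both sides.

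The wide peaks were centred on the gene start. The median position of the midpoint was -5.0 bp, the quartiles were -49.0 and 46.4 bp, and the range was -824 to 1108 bp. For narrow peaks the median was also -5.0 bp, and the quartiles were -53.2 and 58.0 bp. The midpoint was within 100 bp of the start in 71.9% (68.8 to 74.8) of the wide peaks and 64.4% of the narrow peaks, a difference of 7.51 points (3.74 to 11.2). The start lay inside 718 wide peaks (84.1%, 81.5 to 86.4) against 60.8% of the narrow ones, a comparison in which the greater width by itself adds to the share. Of the 136 members that did not cover the outermost start, 45 lay upstream and 91 downstream. In 73 of these 136 the peak covered the start of another annotated transcript of the same gene. The gap to the outermost start had a median of 128 bp and was over 500 bp in only 13 of them. Among the 854, 108 also had another single coding start within 1000 bp, which in 101 cases was on the opposite strand in a gene that is not a divergent partner. For those the nearer start was used.

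The sequence around the midpoint of the wide peaks was rich in CpG and rarely held the TATA box sequence TATAAA. In the 200 bp around the midpoint the median GC content was 64.5% and the median ratio of observed to expected CpG 0.914, against 56.5% and 0.452 around the starts of 17545 single coding genes without a peak. A GC content of at least 50% with a CpG ratio of at least 0.6, called CpG-rich here, was found in 95.3% of the wide peaks, 88.6% of the narrow peaks and 39.0% of the starts without a peak. TATAAA was in 1.05% of the wide peaks and 9.46% of the starts without a peak (difference -8.41 points, -9.07 to -7.38). Against CpG-rich starts without a peak, a set chosen after the first comparison was seen, the difference was -2.27 points (-2.94 to -1.25). Windows were on the midpoint for peaks and on the start for genes without a peak. The midpoint was within 100 bp of the start in 71.9% of the wide peaks, so some of their windows miss the start. The part of this in the differences was not tested.

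CCGGAAG occurred in 636 of the 854 wide peaks (74.5%, 71.4 to 77.3), searched on both strands over the whole interval. It was in 52.5% of the narrow peaks, 22.0 points less (18.2 to 25.6). A longer interval has more room for a motif, so the search was repeated in a fixed 200 bp around each midpoint. The shares were then 67.4% and 53.2%, and the difference 14.2 points (10.3 to 18). In the central 100 bp the shares were 50.4% and 49.8%, with a difference of 0.537 points (-3.50 to 4.57). The higher share in wide peaks was thus found with the sequence beyond the central 100 bp included, and the interval at 100 bp spans 0. Wide peaks at divergent promoters held the motif in 77.8%, and the difference of -3.30 points (-10.4 to 5.19) was not detectable with 126 peaks.

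Wide peaks also held several copies more often. At least 2 copies of CCGGAAG occurred in 248 wide peaks (29.0%, 26.1 to 32.2) and in 7.58% of the narrow peaks, a difference of 21.5 points (18.2 to 24.8). Within the fixed 200 bp it was 23.0% against 7.74%, and within 100 bp 13.5% against 6.15%, a difference of 7.32 points (4.89 to 9.97). Unlike the share with any copy, this difference was also found in the central 100 bp. By number, 388 members had 1 copy, 187 had 2, 51 had 3, 8 had 4 and 1 each had 5 and 6. The number of copies per kb of interval was 3.53 in wide, 3.42 in narrow and 3.60 in wide divergent peaks, so per unit of length wide and narrow peaks stood close together.

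After Nr1h2, the most copies were at Pramef8, with 5 copies in 387 bp. This peak was unusual in its place: its copies lay 400 to 531 bp downstream of the start, and its edge was 236 bp from it. Pramef8 belongs to a family with close copies in the genome, so reads there may be shared between copies. Members with 4 copies included Cpsf7 (507 bp), a factor for the 3′ ends of RNA, Zfp865 (444 bp), Cdc123 (425 bp), which assembles an initiation factor of translation, and Xrcc4 (395 bp), a protein of DNA end joining. At Xrcc4 the copies lay at -137, -9, 94 and 122 bp, on both sides of the start. Among the 8 members with the most copies, only Timmdc1 had all of them upstream of the start and only Pramef8 all downstream.

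**Figure D2:**
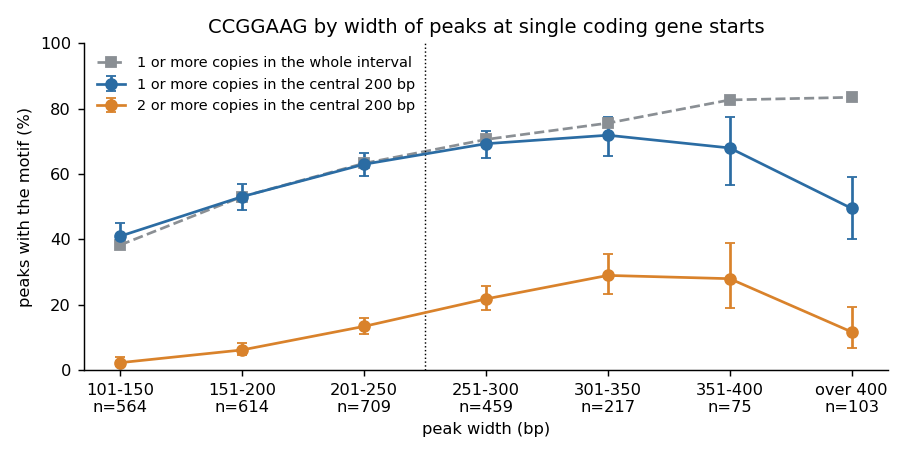
Share of peaks at single coding starts with CCGGAAG (vertical axis, %) by peak width (horizontal axis, bp); circles show 1 or more and 2 or more copies in the central 200 bp with Wilson 95% intervals, and squares 1 or more copies in the whole interval. The dotted line is the limit of 250 bp. Both circle lines rise up to the class of 301 to 350 bp and are lower again over 400 bp, where the squares stand at 83.5%.

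Across the width classes, the share with a copy in the central 200 bp was 41.0% (37.0 to 45.1) for narrow peaks of up to 150 bp, 53.1% and 63.0% in the next narrow classes, and 69.3% and 71.9% (65.6 to 77.4) for members of 251 to 300 and 301 to 350 bp. It was 49.5% (40.1 to 59.0) in the 103 members over 400 bp, although 83.5% of them held the motif somewhere in the interval. In these widest members the copies lay far from the middle. A longer interval leaves more room for distant copies and for several copies, which by itself adds to the values that follow. The copy nearest the midpoint was a median of 92.5 bp from it, against 19.2 bp in members of 251 to 300 bp, and in 35 of the 86 with a motif (40.7%) it was over 100 bp away. At least 2 copies occurred in 48 of the 103 (46.6%, 37.3 to 56.2), in 35 of them on both sides of the midpoint, and the outermost copies were a median of 214 bp apart. Usp38 is an example, with copies at -422, -249 and 13 bp. At Trim41 the copies were at -16, 340 and 361 bp.

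In the members with several copies, neighbouring copies were a median of 49.0 bp apart (quartiles 27.0 and 103 bp, range 3 to 406 bp). Of the 322 neighbouring pairs, 74.2% (69.2 to 78.7) were within 100 bp and 28.9% within 30 bp. The pairs were on the same strand in 53.4% (48.0 to 58.8), an interval that includes 50%. Copies within a peak share that peak and are not replicates of each other.

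The 958 copies gathered around the gene start, and no preferred strand was detectable with CCGGAAG. The median position of their centres was 1 bp, the quartiles were -45.0 and 70.8 bp, and 48.3% (45.2 to 51.5) were within 50 bp of it. The strand of the gene carried 503 copies (52.5%, 49.3 to 55.7), and the narrow peaks had 50.5%. The difference of 1.99 points (-2.29 to 6.25) was not detectable. For the shorter CGGAAG, 871 of 1649 copies in wide peaks were on the strand of the gene (52.8%, 50.4 to 55.2). That interval lies slightly above 50%.

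**Figure D3:**
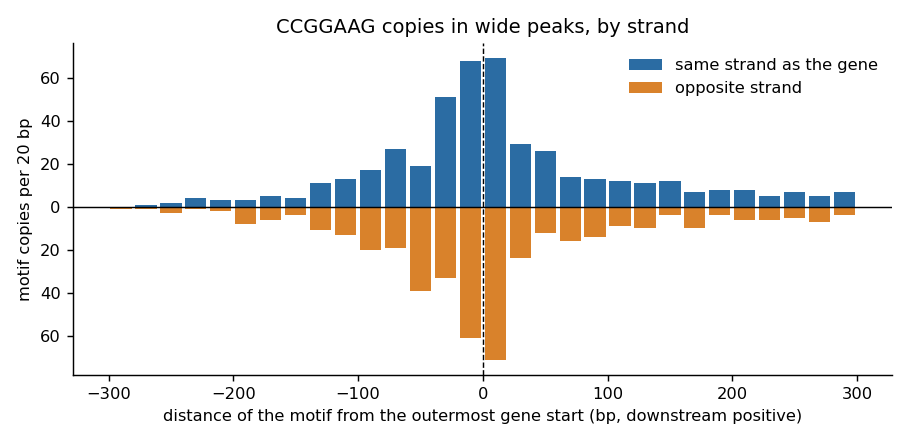
Number of CCGGAAG copies in the wide peaks per 20 bp (vertical axis; upward for the strand of the gene, downward for the opposite strand) by distance from the outermost gene start (horizontal axis, bp). Both strands peak next to the start; 73 of the 958 copies lie outside the plotted 300 bp.

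The bases next to the motif differed from those at promoters without a peak. CCGGAAG was followed by T in 49.6% of the 958 copies in wide peaks, in 44.3% of those in narrow peaks and in 23.3% of the 754 copies from 250 bp before to 50 bp after the starts of genes without a peak. The difference between wide peaks and starts without a peak was 26.2 points (21.8 to 30.5), and that between wide and narrow peaks 5.29 points (1.02 to 9.54). A was the base before the motif in 28.4% of the copies in wide peaks against 15.9% without a peak, and C in 24.1% against 37.5%. Of the sites printed above, Gabpa, Mcrs1 and Cox5b carry the T, and Mcm3 and Mrpl16 carry it after the shorter CGGAAG. Others do not: the Lonp2 copies are followed by G or C, and the Tomm22 copy on the strand shown by A. At the widest peaks both kinds occurred, as at Zfp263 with T and Trim41 with C after the motif.
Zfp263, chr16:3744079-3744108, plus strand: ggaaacgtgaaCCGGAAGtccgtcctgact
Trim41, chr11:48816998-48817027, minus strand: gtgcggagacgCCGGAAGcgttgggaggga

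The 218 wide peaks without CCGGAAG all held a GGAA core, as did every other member (1 to 17 cores, median 6). So short a core is frequent in any sequence of this length. The shorter CGGAAG was in 150 of the 218 (68.8%, 62.4 to 74.6), which brought the share of all wide peaks with CGGAAG to 92.0% (90.0 to 93.7). Neither form was found in 68 members, among them Nubp1. The median width was 289 bp without CCGGAAG and 299 bp with it. Kbtbd2 and Zfp959, of the 10 widest, also had no CCGGAAG and held 3 and 2 copies of CGGAAG.

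Sequences of other promoter factors showed small differences. In the central 200 bp, the E-box CACGTG was in 6.21% of the wide and 9.06% of the narrow peaks (-2.86 points, -4.84 to -0.666), and the ZNF143 sequence ACTACAA in 2.46% against 4.40% (-1.94 points, -3.27 to -0.418). ACTACAA was in 7.14% of the wide peaks at divergent promoters, and the difference of single starts from these was -4.68 points (-10.6 to -1.11). Differences between wide and narrow peaks in the GC box GGGCGG (60.2% and 61.2%), the NF-Y sequence CCAAT (26.6% and 26.9%), the NRF1 sequence GCGCATGC (3.16% and 4.35%), the YY1 sequence AAGATGG (5.62% and 7.10%) and the cyclic AMP element TGACGTCA (3.28% and 3.34%) had intervals that span 0. The GC box was more frequent in wide peaks than at all starts without a peak (35.4%) but less frequent than at CpG-rich starts without a peak (70.3%, difference -10.1 points, -13.6 to -6.66). Within the wide peaks, CCAAT was in 23.8% of those with CCGGAAG in the central 200 bp and in 32.4% of those without it (-8.59 points, -15.2 to -2.22). In this comparison the interval of every other sequence searched spans 0, and no correction was made for the number of comparisons. A match is a string of letters in the reference and does not show that the factor was bound.

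Seen from the genes, the share with a wide peak rose with the number of motif copies at the start. Of all 20451 single coding genes, 4.18% were the nearest start of a wide peak. Of the 1958 with at least 1 copy of CCGGAAG from 250 bp before to 50 bp after the start it was 24.9%, and of the 9293 with a CpG-rich start 8.45%. By copies, the share was 1.98% (1.79 to 2.20) with 0 copies, 20.5% (18.6 to 22.5) with 1, 45.7% (39.6 to 52.0) with 2 and 61.0% (48.3 to 72.4) with 3 or more, which was 36 of 59 genes. With at least 2 copies it was 28.2 points (22.3 to 34.1) higher than with 1. Genes that were the nearest start of neither a wide nor a narrow peak, some of which lie near a peak assigned to another start or a soft-masked one, went from 92.3% at 0 copies to 42.1%, 18.6% and 10.2%. Among CpG-rich starts alone, the shares with a wide peak were 4.06%, 24.9%, 49.3% and 61.4%. Even so, 367 of the 854 wide peaks were at genes with 0 copies in this stretch.

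**Figure D4:**
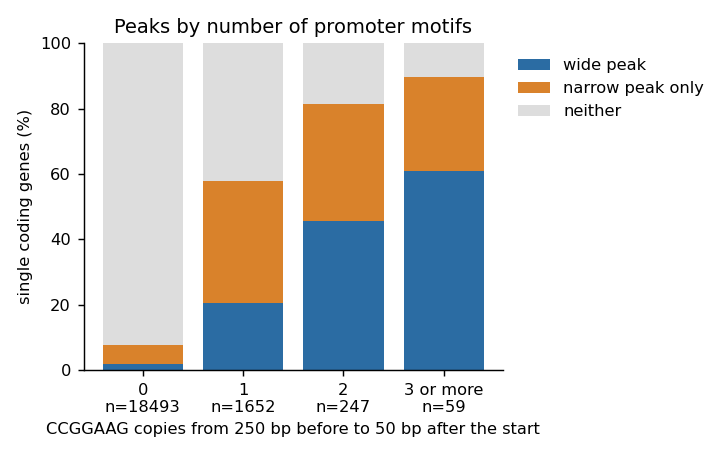
Single coding genes (vertical axis, %) that are the nearest start of a wide peak, only of a narrow peak or of neither, by the number of CCGGAAG copies from 250 bp before to 50 bp after the outermost start (horizontal axis, with the number of genes). The part with a wide peak goes from 1.98% to 61.0%.

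The genes under wide peaks were then looked up in gene lists. Most of the lists are of basic cell functions, and they were chosen with earlier results of these data known. The 23 lists of genes used here held 280 of the 854 genes (32.8%), and the other members are in no list. Of all genes in at least 1 list, 8.02% (7.17 to 8.97) had a wide peak. Each share below is set beside 4.18% for all single coding genes and 8.45% for those with a CpG-rich start. Each counts all genes of its list, so 4.18% is the like value. Shares among CpG-rich starts alone are given further below. Genes of protein and RNA synthesis come first. Cytosolic ribosomal proteins had a wide peak at 21 of 75 genes (28.0%, 19.1 to 39.0), led by Rps19 (492 bp, 0 copies of CCGGAAG), Rpl37 (465 bp, 2 copies) and Rpl27a (381 bp, 1 copy). Many ribosomal protein genes have processed copies elsewhere in the genome, so reads in their exons may be shared. Splicing factors had 22 of 82 (26.8%), with Lsm4 (447 bp), Sf3b4 (405 bp, 3 copies) and Sf3b2 (379 bp) the widest. Translation factors had 17 of 73 (23.3%), with the widest peak at Eif1ad (533 bp, 2 copies), then the termination factor Etf1 (457 bp) and Eif1b (392 bp). RNA polymerases and general transcription factors had 20 of 98 (20.4%). Of these 20, 18 held CCGGAAG, where 74.5% of all wide peaks did. The widest were Gtf2h2 (478 bp), Gtf3c2 (380 bp, 3 copies) and Taf1b (342 bp). Aminoacyl-tRNA synthetases had 5 of 34 (14.7%), with an interval (6.45 to 30.1) that includes 8.45%. The 5 were Wars, Hars, Cars, Mars2 and Mars. Each held the motif, as did 74.5% of all wide peaks, so nothing is read from so few.

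Mitochondrial genes formed another group. Mitochondrial ribosomal proteins had a wide peak at 13 of 60 genes (21.7%, 13.1 to 33.6), the widest being Mrpl58 (443 bp, 2 copies), Mrpl43 (405 bp, 2 copies) and Mrps16 (387 bp, 1 copy). Respiratory chain subunits and assembly factors had 14 of 92 (15.2%), among them Cox16 (457 bp, 2 copies), Ndufs1 (455 bp) and Ndufs8 (370 bp). Protein import and carriers had 10 of 74 (13.5%), with Timm10b (438 bp), Tomm70a (408 bp, 2 copies) and Timmdc1 the widest. Timmdc1 entered this list by its name and acts in complex I assembly. CCGGAAG was in 10 of the 13, 11 of the 14 and 7 of the 10 wide peaks of these 3 lists. It was in 74.5% of all wide peaks, so nothing is read from these counts.

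Protein turnover, traffic and genome maintenance ranged more widely. Proteasome subunits and assembly factors had 9 of 42 (21.4%), led by the ubiquitin receptor Adrm1 (377 bp), Psmd7 (350 bp) and Psmd8 (327 bp). Autophagy and vacuolar sorting had 16 of 102 (15.7%), with Ulk4 (444 bp), Vps13b (419 bp) and Vps52 (380 bp) the widest, each with 2 copies. Rab GTPases and vesicle traffic had 26 of 198 (13.1%), in which Sec11a (489 bp) and Sec61a1 (387 bp) followed Ap2a1. Nuclear pore and transport had 8 of 61 (13.1%) and chaperones 11 of 93 (11.8%), with Tnpo3 (347 bp) and Hspa4 (444 bp) the widest of each. Ubiquitin conjugation had 25 of 270 (9.26%), counted by a name pattern that also took in Cdc37 and Cdc45, and Rnf168 (427 bp) and Usp19 (417 bp) came after Usp38. Zinc finger proteins had 38 of 430 (8.84%), the most genes of any list, which include 3 of the 10 widest peaks. DNA repair had 10 of 73 (13.7%), among them Xrcc4 and Ercc6 (313 bp, 2 copies). DNA replication had 4 of 59 (6.78%), which were Cdc45 (372 bp), Gins4 (318 bp), Mcm3 and Rfc3. The list of histone-modifying enzymes had 6 of 90 (6.67%), among them Ing4 (296 bp), Kdm5a (291 bp, 3 copies) and Kat5 (287 bp). Ing4 is in this list but is not itself an enzyme. Cyclins, cell cycle kinases and related genes had 6 of 83 (7.23%), with Cdk11b (434 bp), Mad2l1 (330 bp) and E2f4 (313 bp). Mad2l1 and E2f4 are neither cyclins nor kinases. The intervals of these last 3 lists include both 4.18% and 8.45%, and these shares count wide peaks only. Narrow peaks, with no wide one, were nearest to 12 of the 59 replication genes (20.3%), among them Mcm5. The same held for 18 of the 90 genes in the list of histone-modifying enzymes and 15 of the 83 cell cycle genes (18.1%). Among all single coding genes this share was 8.67%, and the differences from it were not tested. Shares above 8.67% were not particular to these lists. The share was 38.7% for cytosolic ribosomal proteins, 30.5% for splicing factors and 26.7% for mitochondrial ribosomal proteins. It was lower for interleukins, chemokines and their receptors (0.595%) and 0 for channels and olfactory receptors.

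Genes of T-cell function had few or no wide peaks, with ranges that include the share of all genes. Of 45 single coding genes of T-cell receptor signalling, 0 had a wide peak, which allows a share of up to 6.67% (3 counts of the total) and so includes 4.18%. Narrow peaks, with no wide one, were nearest to 7 of them (15.6%, against 8.67% of all single coding genes, a difference not tested): Map2k1 (231 bp), Nfatc3 (199 bp), Nras (180 bp), Nck1 (169 bp), Cblb (146 bp), Ppp3r1 (130 bp) and Malt1 (112 bp). Only the peak at Nras held CCGGAAG, and none of the 45 genes had a copy from 250 bp before to 50 bp after its start, while 1958 of all 20451 single coding genes had one. Interleukins, chemokines and their receptors had 2 of 168 (1.19%, 0.327 to 4.24), Ccl25 (279 bp) and Il3ra (271 bp), both without CCGGAAG. Among their CpG-rich starts it was 6.06% (1.68 to 19.6). Potassium and sodium channels had 0 of 108 (up to 2.78%) and olfactory receptors, which are silent in most tissues, 0 of 1093 (up to 0.274%). Only 1 of the 1093 olfactory receptor genes and 44 of the 108 channel genes had a CpG-rich start.

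**Figure D5:**
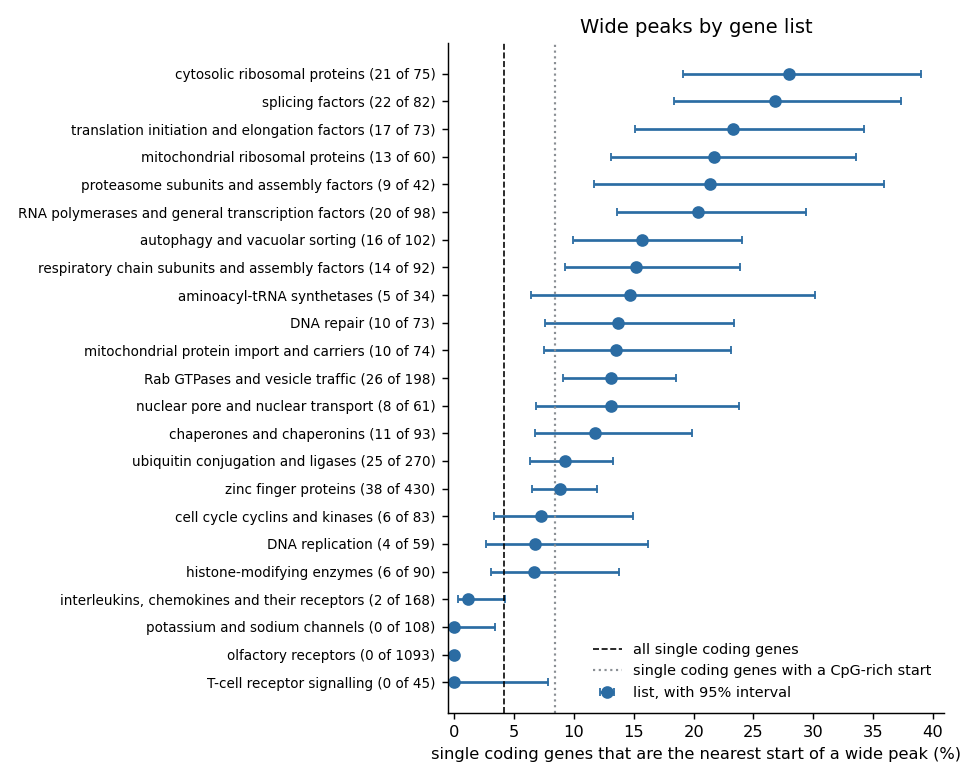
Share of the single coding genes of each list that are the nearest start of a wide peak (horizontal axis, %), with Wilson 95% intervals and the counts in the labels. The dashed line is 4.18% for all single coding genes and the dotted line 8.45% for those with a CpG-rich start; cytosolic ribosomal proteins, splicing factors and translation factors have the highest values, with intervals that overlap those of other lists.

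With CpG-rich starts alone, a restriction chosen after the data were seen, the same 6 lists had the highest shares: cytosolic ribosomal proteins 31.6% (21.0 to 44.5), splicing factors 30.4% (20.8 to 42.1), proteasome 27.3% (15.1 to 44.2), translation factors 25.8% (16.7 to 37.4), mitochondrial ribosomal proteins 22.0% (12.8 to 35.2) and RNA polymerases and general transcription factors 21.3% (14.1 to 31.0). The intervals of these 6 overlap one another, so they are not ordered by these data, and each lies above 8.45%. DNA replication had 6.52% (2.24 to 17.5) and T-cell receptor signalling 0 of 19 (up to 15.8%), and both ranges include 8.45%.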

How the data were processed

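GABPα ChIP-seq of CD4+ T cells was analysed from the deposited peak list, whose only other library, the input, served as control. The authors used Trimmomatic for trimming, Bowtie for alignment to mm10 and MACS2 for peak calling; versions are not given in the sources used here. The deposited columns used are positions only (chromosome, first and last base, in bp); starts were taken as 0-based and are printed 1-based. No count, score or depth is in the list. A strand column of the list was not used in the report.

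Peaks were set on GRCm38.p6 (mm10) and on protein-coding genes of GENCODE release M21, without mitochondrial genes. The distance is from the edge of the peak to the outermost start, and the nearest start was taken. Motifs were counted as exact strings on both strands, overlapping copies included. Fixed windows of 200 and 100 bp were centred on the peak midpoint, or on the start for genes without a peak. Shares have Wilson and differences Newcombe 95% intervals; no p-value is given, since there is 1 library. The members and gene lists were chosen with earlier results of these data known. Genes named were those of the 10 widest peaks, the 8 with the most copies, up to 3 widest per list, 3 to either side of the width limit, and members among 21 genes that the study names. A gene that this rule would name is not reported here. Others, such as the examples of the palindrome, were chosen after their values were seen. The motif search, the rule and the intervals were tested on simulated data. Tools were Python 3.11.15, numpy 2.4.6, pysam 0.24.0, samtools 1.23.1 and matplotlib 3.10.9.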

Additional observations from a re-analysis of the deposited data

How the results depend on the processing

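The number of wide peaks depended on the width limit: it was 1563 over 200 bp, 395 over 300 bp and 103 over 400 bp, while the other 8 alternatives (window, soft-masking, head-to-head distance, any transcript start) gave 718 to 909. The share with a motif was 92.0% for CGGAAG, 45.2% for CCGGAAGT and 100% for GGAA, 67.4% and 50.4% for CCGGAAG in 200 and 100 bp, and 69.4%, 79.0% and 83.5% over 200, 300 and 400 bp. The difference from narrow peaks fell to 0.537 points in 100 bp. The difference from divergent promoters became 1.55 points with CCGGAAGT (-7.78 to 10.5). At least 2 copies were found in 64.5% for CGGAAG, 9.37% for CCGGAAGT and 23.0% in 200 bp. With any transcript start, 92.6% of the peaks covered a start, and from the nearest of these the midpoint was at a median of -18.0 bp. Genes in at least 1 list had a wide peak in 8.02%, and in 14.0% over 200 bp, 3.95% over 300 bp, 21.6% at any width and 15.7% among CpG-rich starts (added after seeing the data). Under their alternatives the share of copies on the strand of the gene was 52.8% and 53.3%, and the excess of a following T 28.9 and 30.1 points. Depth is unknown, so peaks below the authors' cutoff cannot be seen, and width cannot be separated from read number. No paired analysis was possible because there is 1 ChIP library.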

Other observations

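Wide peaks were rare on chromosome X. Of its 909 single coding genes, 7 (0.770%) were the nearest start of a wide peak, against 4.37% on the autosomes (difference -3.60 points, -4.10 to -2.74), where the share ran from 3.07% to 5.31% by chromosome. The 7 were Hccs, Med14, Rbmx2, Pbdc1, Siah1b, Gm45208 and Gm21887. The comparison was repeated, after this was seen, among genes with a CpG-rich start (2.03% against 8.65%, difference -6.62 points, -7.87 to -4.22) and among genes with at least 1 promoter copy of CCGGAAG (5 of 64, 7.81%, against 25.4%, difference -17.6 points, -22.5 to -8.23). For a peak of any width within 1000 bp, genes with a promoter copy had 34.4% on X and 65.0% on the autosomes. The study states that mice of both sexes were used in its experiments. Which sex gave this library, and with it the number of X chromosomes per cell, is not given in the sources used here, and its part was not tested.

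Only 3 genes with at least 3 promoter copies of CCGGAAG had no peak of any kind within 1000 bp: Xlr5a, Xlr5b and Xlr5c, each with 4 copies. They are members of 1 multigene family on chromosome X.

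A ChIP-seq interval has no strand of its own, yet the deposited list has a strand column. It equalled the strand of the nearest gene in 93.3% (91.5 to 94.8) of the wide peaks at single starts and in 62.7% (54.0 to 70.6) of those at divergent promoters. Where the column came from is not stated in the sources used here.

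A non-coding gene started head to head within 1000 bp at 75 of the 854 genes with a wide peak (8.78%), at 7.33% of the genes with only a narrow peak and at 3.03% of those without a peak. The difference between the last and the wide peaks was 5.76 points (4.02 to 7.86), while wide and narrow differed by 1.45 points (-0.709 to 3.82). Starts without a peak were CpG-rich in 39.0% against 95.3% of the wide peaks. The comparison was not repeated among CpG-rich starts. These starts are single only with respect to coding genes.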
